A study of Caenorhabditis elegans with 6 samples.

Results

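The genes described here are 10 transcription factors and timing regulators of the larval molting cycle of Caenorhabditis elegans, namely nhr-23, nhr-25, nhr-41, nhr-67, nhr-85, grh-1, blmp-1, bed-3, lin-42 and myrf-1. They were taken by name, and every probe set that the platform annotation assigns to one of them alone was kept, which gave 15 of the 22548 probe sets tested, or 10 of 17118 genes. A probe set is the group of array probes that reads one transcript. Expression was measured on 6 one-colour Affymetrix arrays, 3 from N2 larvae fed HT115 bacteria making double-stranded RNA against nhr-23 and 3 from N2 larvae fed bacteria with the empty vector L4440. Both groups started as synchronized L1 larvae, spent 21 hours at 20 C on 2% agarose and were collected as L2 larvae. The nhr-23 insert covers part of the ligand-binding domain, per the labels. All animals were wild type and RNA came from whole larvae, so fewer cells of a type and less RNA per cell cannot be told apart.

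A worm larva molts at the end of each larval stage, making a new cuticle beneath the old one and then shedding the old one. Many epidermal transcripts rise and fall once per stage in step with this cycle, so their level in a population depends on how far through the stage the animals are. The receptor NHR-23, the worm relative of vertebrate ROR and insect DHR3, is needed for molting and for the expression of many cuticle and molting genes. Together with the other regulators listed here it belongs to a set of factors whose loss disturbs molting or its timing, or whose relatives act in insect molting.

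Array medians were between 5.12 and 5.18 on the log2 scale, and arrays of one group correlated at 0.985 to 0.997. No detection calls were used here, so whether a dim probe set lies above background is not known. Values of different probe sets are not compared with each other, except to rank those of a gene by brightness. No probe set of the whole array passed limma's test of nhr-23 RNAi against control at an adjusted p under 0.05 (0 of 22548, 0%), while 833 had an unadjusted p under 0.05, which is 3.69%. Of the 15 probe sets of the regulators, 0 passed and 2 had an unadjusted p under 0.05, both of them probe sets of nhr-23. Both groups carry replicate numbers 1 to 3. These were taken to pair the arrays on the values alone, with weak evidence for number 2, as described under the processing. With the number as a block, 2 of 22548 probe sets passed (0.00887%) and 1344 had an unadjusted p under 0.05 (5.96%), and 1 of the 15 passed, again of nhr-23. The markers of the epidermis and seam, where molting regulators act, had a mean log2 value of 8.27 ± 0.04 (SD, n = 3) in RNAi-labelled arrays and 8.32 ± 0.04 (SD, n = 3) in control arrays over 16 measured genes, with 6 of 16 lower. Markers of adult hermaphrodites, such as yolk protein genes, had a mean log2 value of 4.36 ± 0.10 (SD, n = 3) in RNAi-labelled arrays and 4.35 ± 0.09 (SD, n = 3) in control arrays over 7 measured genes.

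**Figure D1:**
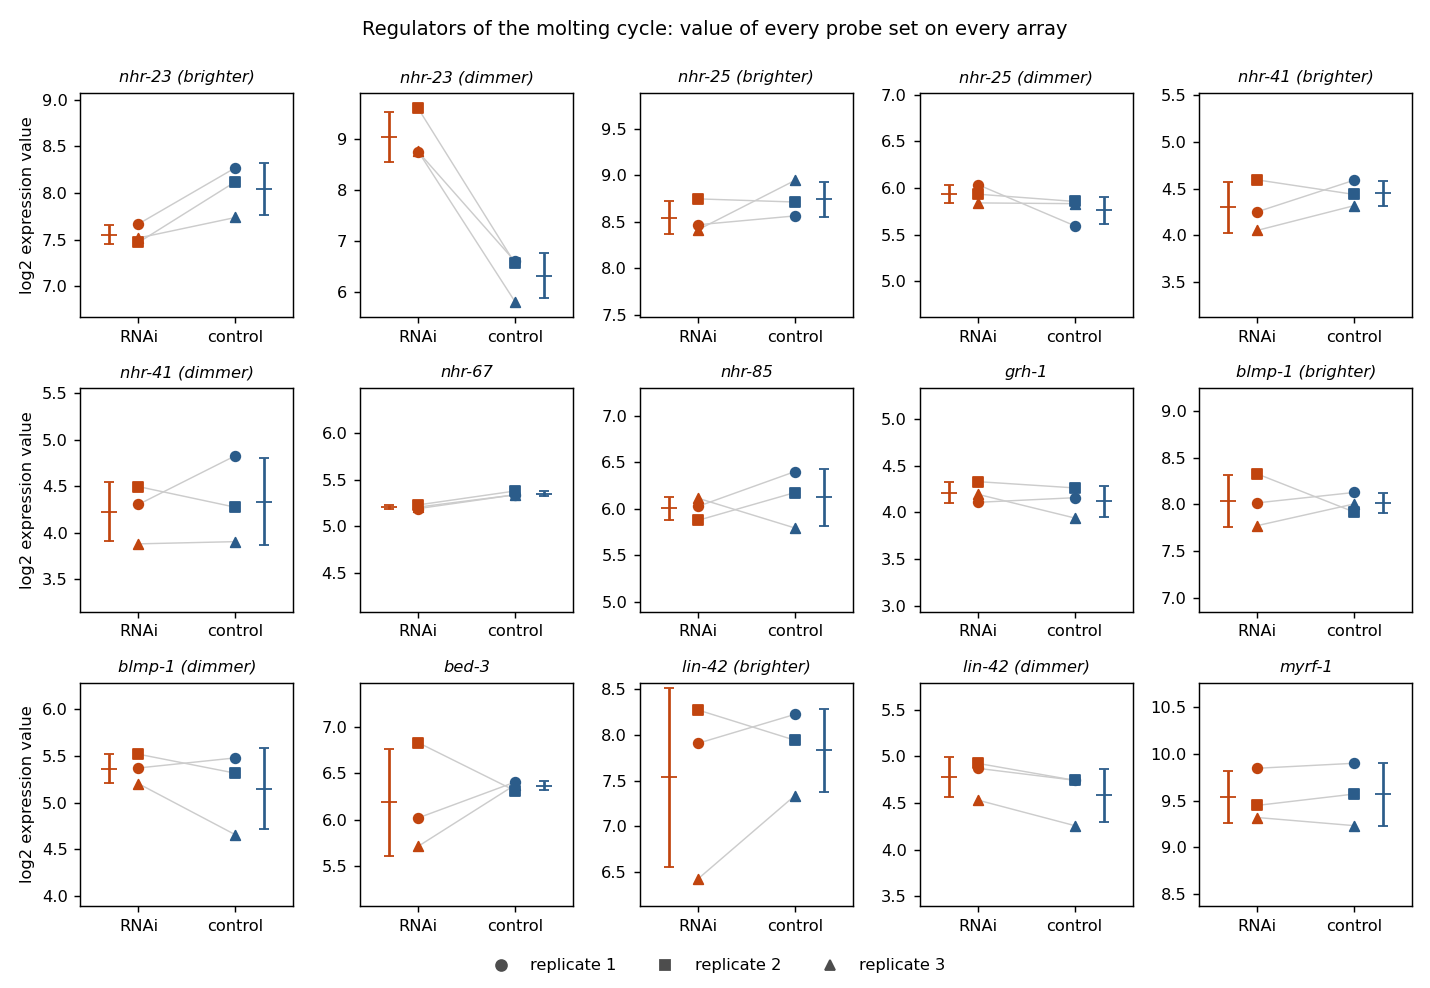
Log2 expression value of each of the 15 probe sets on each of the 6 arrays, with arrays labelled nhr-23 RNAi on the left of each panel and control arrays on the right. Symbols mark replicate numbers 1 to 3, grey lines join arrays of the same number, and bars give the mean ± SD of 3 arrays. The groups stand apart in both panels of nhr-23 and in that of nhr-67.

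The targeted gene was read by 2 probe sets, 1 with lower and 1 with higher values in the RNAi-labelled arrays. Here and for the other genes, brighter and dimmer go by the mean over all 6 arrays. In the RNAi-labelled arrays alone the dimmer nhr-23 probe set had the higher mean, at 9.04 against 7.55 log2. The brighter one (175831_s_at) read 7.67, 7.47 and 7.52 in RNAi replicates 1, 2 and 3, against 8.27, 8.12 and 7.74 in control replicates 1, 2 and 3. All RNAi-labelled values lay below all control values. The difference was -0.49 log2 (SE 0.15), 1.41-fold lower, with a limma unadjusted p of 0.0123 and an adjusted p of 0.993, or 0.406 with the replicate block. Within the pairs of replicates 1, 2 and 3 it was -0.60, -0.65 and -0.22 log2.

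The dimmer probe set of nhr-23 (194130_s_at) read 8.76, 9.61 and 8.76 in RNAi replicates 1, 2 and 3, against 6.60, 6.56 and 5.80 in control replicates 1, 2 and 3. Here all RNAi-labelled values lay above all control values, and the gap between the groups was wider than either group. The mean was 9.04 ± 0.49 (SD, n = 3) in RNAi-labelled arrays and 6.32 ± 0.45 (SD, n = 3) in control arrays, a log2 difference of 2.72 (SE 0.30) or 6.60-fold. This was the largest difference, and the smallest unadjusted p, of all 22548 probe sets. The next in size was F58H1.2, in the other direction, at -1.82 log2. The dimmer nhr-23 probe set did not pass the fit without pairing (limma adjusted p = 0.993) and passed with the replicate block (limma adjusted p = 0.0370). With the block and both arrays of number 1, 2 or 3 left out, a check added after the values were seen, its log2 difference was 3.01, 2.56 and 2.61, with limma adjusted p of 0.0224, 0.00152 and 0.0165.

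Within an array the dimmer nhr-23 probe set minus the brighter one was 1.09, 2.14 and 1.25 log2 in RNAi replicates 1, 2 and 3, against -1.67, -1.56 and -1.93 log2 in control replicates 1, 2 and 3. The sign of such a value depends on how well each probe set binds its target, so only its shift between groups is read. The shift between groups was 3.21 log2 (exact permutation test, 2-sided, p = 0.1, the smallest that 3 against 3 arrays allow). Both probe set names end in _s_at, which marks probes that may match more than one transcript, and the annotation lists nhr-23 alone for each. Which part of nhr-23 each one reads, and whether either overlaps the stretch present in the fed double-stranded RNA, was not tested. The labels would have nhr-23 transcript lowered, which is the direction of the brighter probe set and not of the dimmer. Directions below are those of the arrays as labelled.

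**Figure D2:**
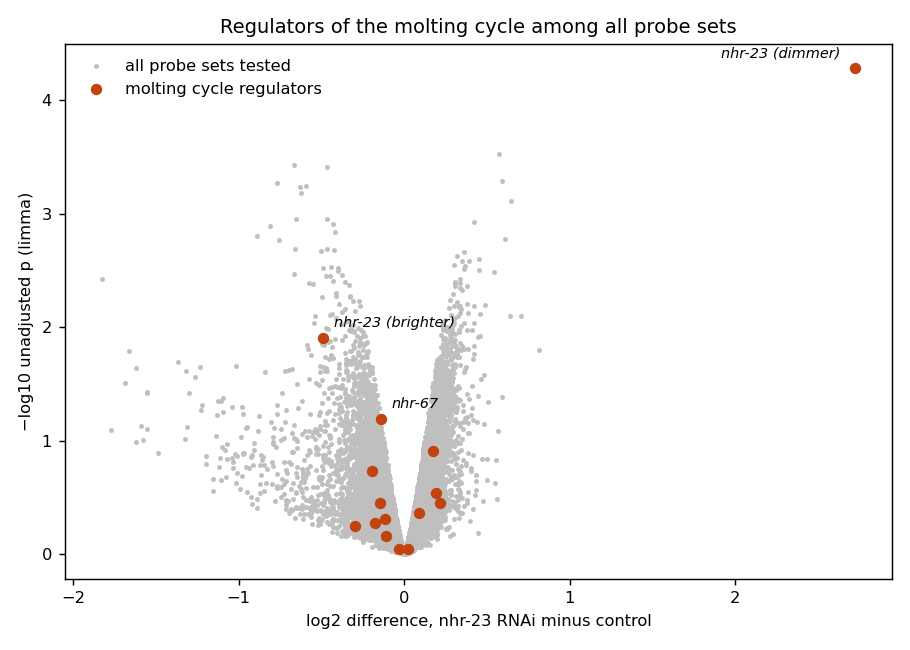
Log2 difference (nhr-23 RNAi minus control, horizontal) against −log10 of the unadjusted limma p (vertical) for 22548 probe sets in grey and the 15 of the molting cycle regulators in orange. The dimmer nhr-23 probe set lies alone at 2.72 log2, its brighter one at -0.49, and most of the others lie among the mass of points.

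The other 13 probe sets, read from the same fit, all had a limma adjusted p between 0.993 and 0.996. Their differences ran from -0.30 for lin-42 to 0.21 for blmp-1, both in log2. Over all 15 probe sets 9 were lower in the RNAi-labelled arrays, where 45% of all probe sets were lower, and the median difference was -0.11 log2 against 0.014 log2 over all probe sets. By the brightest probe set of each gene 8 of 10 were lower, against 44.3% of all genes. The dimmer nhr-23 probe set, which was higher, is not part of that count. Values of the groups were fully apart in 3 of the 15, against 9.5% of all.

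Among the nuclear receptors, nhr-25 encodes the relative of insect FTZ-F1, which acts in epidermal development and molting. Its brighter probe set (175663_at) read 8.47, 8.75 and 8.41 in RNAi replicates 1, 2 and 3, against 8.56, 8.71 and 8.94 in control replicates 1, 2 and 3. The groups overlapped and the log2 difference was -0.20 (95% interval -0.51 to 0.12), or -0.095 without control replicate 3 and -0.031 with both arrays of number 3 left out. Its dimmer probe set (193001_s_at) read 6.04, 5.93 and 5.84 in RNAi-labelled arrays, against 5.60, 5.86 and 5.83 in control arrays, a log2 difference of 0.18 (95% interval -0.06 to 0.41), or 0.093 without control replicate 1 and 0.043 with both arrays of number 1 left out. The 2 probe sets thus gave differences of opposite sign, as those of nhr-23 did, and neither passed. Dimmer minus brighter within an array was -2.43, -2.81 and -2.57 log2 in RNAi-labelled arrays, against -2.97, -2.86 and -3.11 log2 in control arrays, without overlap (difference 0.37 log2, exact permutation test, 2-sided, p = 0.1). This comparison was made for the 5 genes with 2 probe sets, and the adjusted p over the 5 was 0.25 for both nhr-23 and nhr-25. For nhr-41, blmp-1 and lin-42 the within-array values of the groups overlapped, with exact permutation p of 0.9, 0.6 and 0.4.

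The receptor gene nhr-67, the relative of insect tailless, gave the tightest values of all members. Its probe set (192717_at) read 5.19, 5.23 and 5.20 in RNAi replicates 1, 2 and 3, against 5.34, 5.38 and 5.34 in control replicates 1, 2 and 3. The RNAi-labelled values lay below the controls in every array, by 0.15, 0.15 and 0.13 log2 within the pairs, although the whole difference was 1.10-fold. Its mean was 5.21 ± 0.02 (SD, n = 3) in RNAi-labelled arrays and 5.35 ± 0.02 (SD, n = 3) in control arrays. The limma unadjusted p was 0.0639, with a moderated error (SE 0.06) that draws on the spread of all probe sets. Adjusted over all probe sets it was 0.993. Without any single array its log2 difference stayed between -0.15 and -0.13. Among all probe sets, 3.14% had all RNAi-labelled values below all controls, and 11.1% were lower in all 3 pairs. Of the 15, 2 met each of these, nhr-67 and the brighter nhr-23.

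The receptor gene nhr-85, the relative of insect E75 and vertebrate Rev-erb, read 6.03, 5.88 and 6.11 in RNAi replicates 1, 2 and 3, against 6.40, 6.17 and 5.79 in control replicates 1, 2 and 3 (193753_at). It was lower in the first 2 pairs, by 0.37 and 0.30 log2, and higher by 0.32 log2 in the pair of replicate 3, so that the mean difference was -0.12 log2 (95% interval -0.50 to 0.26). The receptor gene nhr-41, related to insect DHR78, had probe sets that moved together across arrays more than those of the other genes (Pearson's r 0.83 over 6 arrays, as a description). The brighter one (176582_at) read 4.25, 4.59 and 4.05 in RNAi-labelled arrays and 4.59, 4.44 and 4.32 in control arrays. The dimmer one (186589_at) read 4.30, 4.50 and 3.88 in RNAi-labelled arrays and 4.83, 4.27 and 3.90 in control arrays. Both overlapped between groups, with log2 differences of -0.15 and -0.11. That of the brighter one was -0.026 without RNAi replicate 3.

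**Figure D3:**
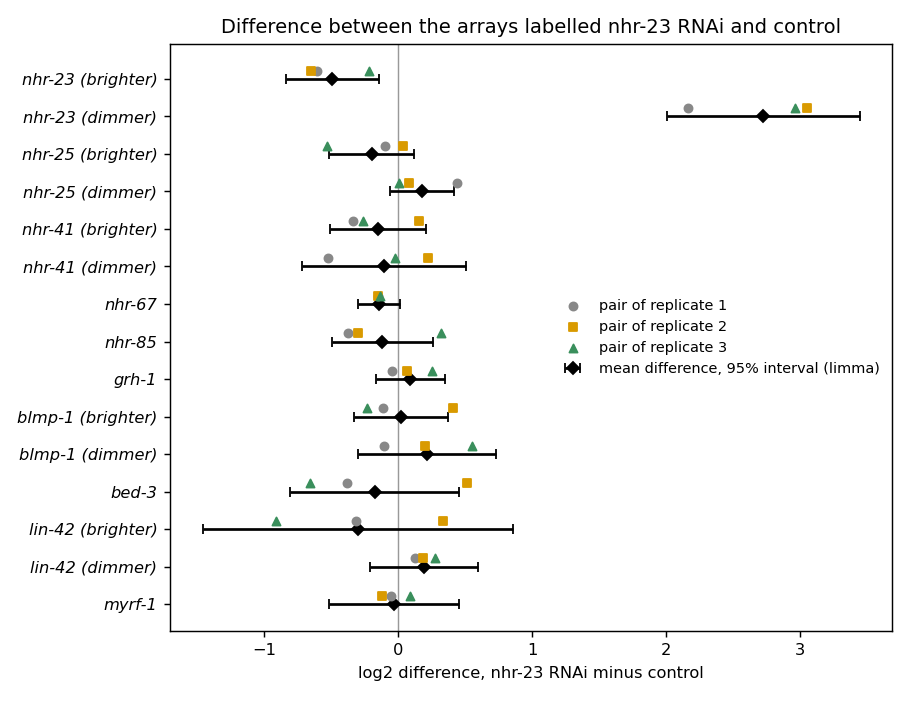
Log2 difference of each probe set, nhr-23 RNAi minus control (horizontal), with limma's 95% interval (black) and the 3 differences between arrays of the same replicate number (coloured symbols). The intervals of both nhr-23 probe sets leave out 0, and those of the other 13 include it.

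Of the other transcription factors, grh-1 encodes the Grainyhead protein, whose family controls barrier epithelia and whose level rises and falls with each molt in worms. Its probe set (186593_at) read 4.11, 4.33 and 4.20 in RNAi replicates 1, 2 and 3, against 4.16, 4.26 and 3.94 in control replicates 1, 2 and 3, a log2 difference of 0.091 (95% interval -0.17 to 0.35), which was 0.00076 without control replicate 3. The zinc finger gene blmp-1, the relative of vertebrate Blimp1, acts in the rhythmic expression of epidermal genes. Its brighter probe set (175302_at) read 8.02, 8.32 and 7.77 in RNAi-labelled arrays and 8.13, 7.92 and 8.00 in control arrays, 0.021 log2 apart on average. Its dimmer one (192395_at) read 5.37, 5.52 and 5.20 in RNAi-labelled arrays and 5.48, 5.32 and 4.66 in control arrays, with a log2 difference of 0.21. Control replicate 3 stood lowest there, and without it the difference was -0.033 log2.

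The gene bed-3 encodes a BED zinc finger protein needed for molting and for vulval cell divisions. Its probe set (179254_at) read 6.02, 6.83 and 5.72 in RNAi replicates 1, 2 and 3, against 6.40, 6.31 and 6.37 in control replicates 1, 2 and 3. The RNAi-labelled arrays spread above and below the controls, which lay close together, with an SD of 0.57 in RNAi-labelled arrays and 0.05 in control arrays (n = 3 each). Its pairs therefore differed in sign, at -0.38, 0.52 and -0.66 log2. The membrane-bound factor gene myrf-1, a relative of vertebrate myelin regulatory factor, read 9.85, 9.45 and 9.32 in RNAi replicates 1, 2 and 3, against 9.90, 9.57 and 9.23 in control replicates 1, 2 and 3 (182066_s_at). The groups were nearly the same at each number, with a log2 difference of -0.029 (95% interval -0.51 to 0.45), while the numbers differed.

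The timing gene lin-42, the relative of the Period genes of circadian clocks, oscillates once per larval stage and sets the rhythm of molts. Its brighter probe set (179896_at) read 7.91, 8.27 and 6.42 in RNAi replicates 1, 2 and 3, against 8.23, 7.94 and 7.33 in control replicates 1, 2 and 3. Replicate 3 was lowest in both groups, and RNAi replicate 3 lay furthest down. The log2 difference was -0.30 (95% interval -1.46 to 0.86), and without RNAi replicate 3 it was 0.26, in the other direction. The dimmer probe set (176596_at) read 4.87, 4.92 and 4.53 in RNAi-labelled arrays and 4.74, 4.74 and 4.26 in control arrays. It was higher in each pair, by 0.13, 0.18 and 0.27 log2, by 0.19 on average. Limma's unadjusted p was 0.288, or 0.0597 with the block, and without control replicate 3 the difference was 0.033 log2. Of the 15 probe sets 3 were higher in all 3 pairs, against 16.3% of all, namely this one and the dimmer ones of nhr-23 and nhr-25.

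The same-number pairs differed among themselves. By the brightest probe set of each gene, all 10 regulators were lower in the RNAi-labelled array of the replicate 1 pair, against 50.5% of all genes. In the replicate 2 pair 4 of 10 were lower, against 45.1%, and in the replicate 3 pair 7 of 10, against 42.8%. The median difference of the 10 was -0.23, 0.051 and -0.23 log2 in these pairs. Over all 15 probe sets 12, 4 and 8 were lower in the 3 pairs, with medians of -0.11, 0.16 and -0.024 log2. Of all 22548 probe sets, 11329, 10429 and 9772 were lower. In the replicate 1 pair the dimmer probe sets of nhr-23, nhr-25 and lin-42 were higher, by 2.16, 0.44 and 0.13 log2. That all 10 were lower there thus depends on the choice of probe set.

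The values were then compared between replicate numbers, with both groups fitted together. Limma's F test of the number passed for 506 of 22548 probe sets, or 2.24%, at an adjusted p under 0.05, and for 0 of the 15. Before adjustment 2806 probe sets, or 12.4%, and 6 of the 15 had a p under 0.05. These 6 were myrf-1 (unadjusted p = 0.00323), both probe sets of lin-42 (0.00375 and 0.00768), and the dimmer ones of nhr-41, nhr-23 and blmp-1 (0.0186, 0.0233 and 0.0304). Their limma adjusted p ran from 0.0921 for myrf-1 to 0.312 for blmp-1. On the average of the groups all 15 probe sets were lower in replicate 3 than in replicate 2. Their median was -0.23 log2, and the smallest gap was -0.032 log2, for nhr-67. Of all probe sets 52.1% were lower, with a median of -0.0076 log2. Within the RNAi-labelled arrays alone the order was reversed for the brighter nhr-23 probe set and nhr-85. Within the control arrays alone it was reversed for bed-3 and the brighter probe sets of nhr-25 and blmp-1. In 12 of 15 replicate 3 was below replicate 1 (median -0.26 log2), against 52.8% of all probe sets. Replicate 2 was below replicate 1 in 5 of 15, against 50.9%.

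The brighter lin-42 probe set had the widest gaps, with replicate 3 below replicate 1 by 1.19 log2 (SE 0.26) and below replicate 2 by 1.23 log2 (SE 0.26). Between replicates 2 and 1 it differed by 0.042 log2 (SE 0.26). Its dimmer probe set showed the same order on a smaller scale, at -0.41 and -0.44 log2 for replicate 3 against replicates 1 and 2. For myrf-1 replicates 2 and 3 both lay below replicate 1, at -0.36 log2 for 2 minus 1 and -0.60 log2 for 3 minus 1 (SE 0.11 each). Its difference of 3 minus 1 was the 1 pairwise difference of the regulators that passed over all probe sets (limma adjusted p = 0.0384, not adjusted over the 3 pairs of numbers, where 3.23% of all probe sets passed). Without control replicate 1, control replicate 3 or RNAi replicate 1 this difference was -0.58, -0.51 and -0.62 log2, with limma adjusted p of 0.504, 0.190 and 0.281. The dimmer nhr-41 probe set was lower by 0.67 and 0.49 log2 in replicate 3 than in replicates 1 and 2, and the dimmer blmp-1 probe set by 0.50 and 0.49 log2. Replicate 3 was the lowest array of its own group in both groups for 6 of 15 probe sets, against 18.4% of all, while neither replicate 1 nor replicate 2 was so for any of the 15 (12.6% and 9.1% of all). By contrast nhr-67 and both probe sets of nhr-25 had F test p of 0.918, 0.395 and 0.838. With both arrays of number 2 left out, lin-42 (brighter), myrf-1 and nhr-41 (dimmer) passed, with limma adjusted p of 0.00351, 0.0234 and 0.0351. In that fit 1250 of 22548 probe sets passed, or 5.54%.

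**Figure D4:**
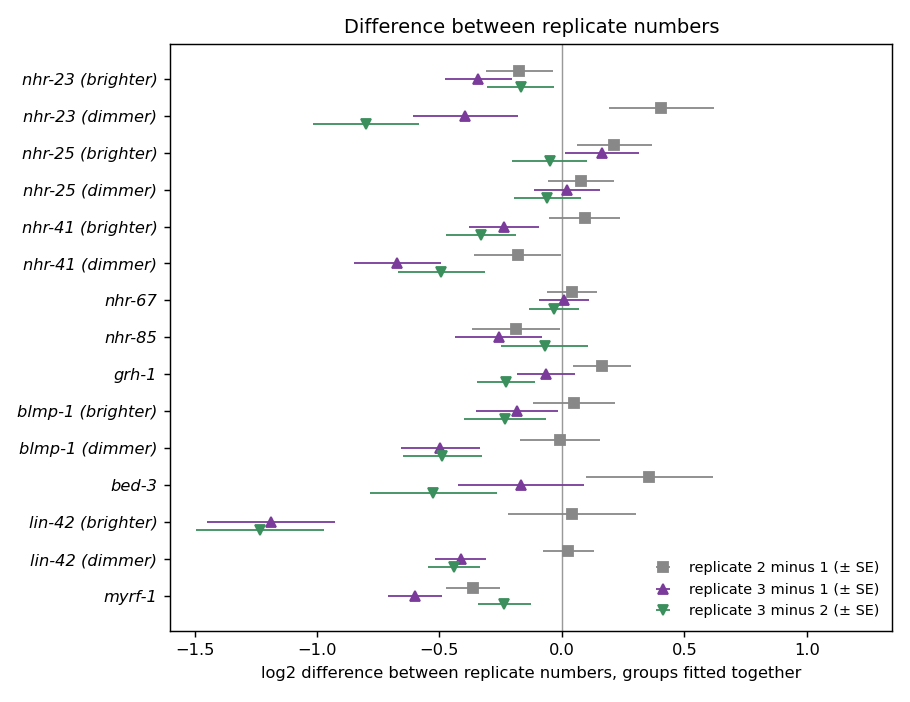
Log2 differences between replicate numbers for each probe set (horizontal), with the 2 groups fitted together and bars of 1 SE. Purple and green symbols, which set replicate 3 against replicates 1 and 2, lie furthest below 0 for the brighter lin-42 probe set, at -1.19 and -1.23.

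Other genes of larval timing and molting were taken from lists and read by the brightest probe set of each gene. Of 34 molting effectors, such as proteases, matrix proteins and lipid carriers of the molt, 30 were lower in RNAi-labelled arrays (88.2%, against 44.3% of all genes), with a median of -0.28 log2, or 1.21-fold lower. Of the 34, 0 passed limma's adjusted p of 0.05, adjusted over all probe sets, with or without the block. An unadjusted p under 0.05 was seen for 3, all lower, which is 8.82% against 3.62% of all genes. These were mlt-3 (-0.28 log2), mlt-2 (-0.48 log2) and the astacin protease gene nas-36 (-0.25 log2). In each all RNAi-labelled values lay below all control values, as in 2.99% of all genes. They were picked by their small p, which favours such values, so this is not a separate result. By replicate number 14 of 34 passed the F test (41.2%), against 2.31% of all genes. Of the 14, 13 were lower in replicate 3 than in replicate 1 and 1 was higher. The list mean was 7.74, 7.82 and 7.20 log2 in RNAi replicates 1, 2 and 3, against 8.12, 8.04 and 7.53 log2 in control replicates 1, 2 and 3. Replicate 3 was thus lowest in both groups for the effectors, as it was for lin-42 and myrf-1. Whether the arrays differ in how far the larvae had gone through the stage was not tested.

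Larval timing factors, among them the heterochronic genes, had 14 of 17 genes lower, against 44.3% of all genes, and their median was -0.058 log2. None passed (limma, 0 of 17, with or without the block), and 0 had an unadjusted p under 0.05. The 3 with the smallest p were kin-20, the relative of the clock kinase Doubletime, at -0.31 log2 (limma unadjusted p = 0.0548), the Hunchback relative hbl-1 at -0.28 log2 (0.0567) and lin-41 at -0.21 log2 (0.204). Of 15 measured partner genes, such as cofactors, ubiquitin ligase parts and SUMO enzymes linked to these regulators, 10 were higher and 5 lower. Over all genes 9529 of 17118 were higher. The median of the partner genes was 0.026 log2. The cullin gene cul-1 was higher by 0.21 log2 (limma unadjusted p = 0.0255) and the beta-catenin gene sys-1 lower by 0.28 log2 (0.0329), and kin-20 was also on this list. None of these passed after adjustment.

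Conserved nuclear receptors outside the 10 genes were split evenly, with 7 of 14 lower and a median of -0.0013 log2. Their smallest unadjusted p was 0.133, for unc-55, at 0.12 log2, followed by nhr-69 at -0.19 log2 and nhr-6 at -0.13 log2. Sterol uptake and processing genes, which bear on nuclear receptor ligands, had 7 of 10 measured genes lower, against 44.3% of all genes. Their median was -0.16 log2. The sterol transporter gene ncr-1 was lower by 0.22 log2 (limma unadjusted p = 0.0393) and the steroid dehydrogenase gene hsd-1 higher by 0.24 log2 (0.0467). The cytochrome P450 gene daf-9 read 6.80, 6.41 and 6.26 in RNAi replicates 1, 2 and 3, against 8.02, 7.30 and 6.38 in control replicates 1, 2 and 3, a log2 difference of -0.74 (0.0988, and 0.00707 with the block). With the block kin-20 and mlt-2 also had a small limma unadjusted p, at 0.00834 and 0.00188. The blocked limma adjusted p of daf-9, kin-20 and mlt-2 were 0.540, 0.562 and 0.312. For daf-9 replicate 1 was highest and replicate 3 lowest in both groups, as for myrf-1. In the comparison of RNAi with control none of these lists had a member past the threshold, adjusted over all probe sets. By replicate number the F test passed for 1 of 17 larval timing factors (lin-29), 1 of 14 conserved receptors (nhr-91) and 1 of 10 sterol genes (strm-1). These are 5.88%, 7.14% and 10%, against 2.31% of all genes, with limma adjusted p of 0.0380, 0.0125 and 0.0339. It passed for 0 of 15 partner genes and for 2 of 16 epidermis and seam markers (12.5%). Replicate 3 lay below replicate 1 in lin-29, nhr-91 and strm-1, at -0.98, -1.32 and -1.28 log2. Of neuron markers 14 of 15 were lower (median -0.16 log2) and of pharyngeal muscle markers 8 of 8 (median -0.19 log2), against 44.3% of all genes. Lower in all 3 pairs were 5 and 0 of them. The pharyngeal list mean was 7.57, 6.91 and 7.71 log2 in RNAi replicates 1, 2 and 3. In control replicates 1, 2 and 3 it was 7.61, 7.76 and 7.51 log2, so RNAi replicate 2 stood lowest. Higher were 10 of 15 body wall muscle, 10 of 14 intestine and 10 of 15 germ line markers, against 9529 of all 17118 genes. The part of these tissues in the differences above was not tested.

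**Figure D5:**
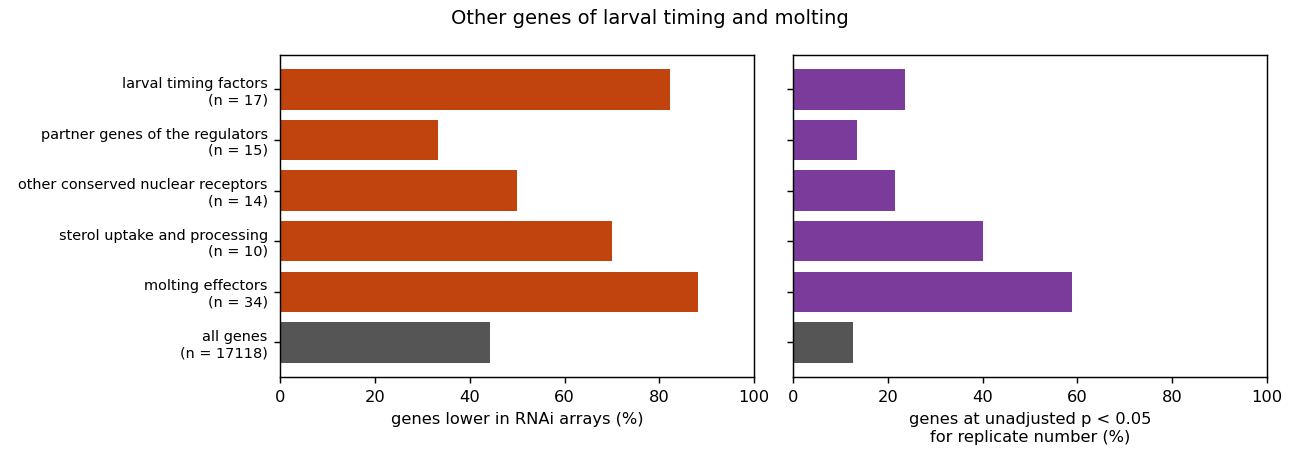
Share of genes lower in arrays labelled nhr-23 RNAi than in control arrays (left, in percent) and share with an unadjusted p under 0.05 for replicate number (right, in percent), for 5 gene lists and all 17118 genes. Molting effectors had the highest share of the 5 lists in both panels, at 88.2% and 58.8%.

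Genes whose values over the 6 arrays were most like those of nhr-23 were ranked by Pearson's r among 1779 probe sets of other single genes with an SD of at least 0.3. With 6 points and so many candidates high values are common, and r is given as a description. For the brighter nhr-23 probe set the first 5 were Y56A3A.2 (0.985), the cuticle collagen gene col-123 (0.984), the nuclease gene crn-7 (0.983), F57H12.6 (0.978) and dhs-29 (0.974), and 49 of 1779 reached 0.9. Of these, col-123 read 5.84, 5.71 and 5.59 in RNAi-labelled arrays and 6.77, 6.56 and 5.84 in control arrays, highest in control replicate 1 like nhr-23 itself. For the dimmer nhr-23 probe set the first 5 were K05C4.4 (0.971), col-140 (0.945), F16G10.15 (0.943), the aldehyde dehydrogenase gene alh-9 (0.926) and Y62E10A.3 (0.908), the 5 of 1779 that reached 0.9. As its arrays form 2 separate groups, r there mostly restates the difference between groups. Among the regulators, nhr-67 (0.79) and nhr-85 (0.74) had the highest r with the brighter nhr-23 probe set, and 8.15% and 11.5% of the probe sets compared had a higher one. Both have an SD below the cut of 0.3 (0.081 and 0.22), so they are set against more variable probe sets. The groups do not overlap in nhr-67, so its r also reflects the difference between groups. With the dimmer nhr-23 probe set nhr-67 had an r of -0.89. The dimmer nhr-23 probe set had an r of -0.73 with the brighter one.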

How the data were processed

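The authors deposited log2 expression values per probe set for 6 arrays. Per the submitters' processing notes the tools were MAS5, RMA and Partek, without versions or roles. RNA was labelled with biotin from 4 ug per the labels' protocols. The growth text in the labels describes another organism and was not used. Of 22625 probe sets, 77 array controls were left out. The platform annotation gave 1 gene for 20766, several for 887 and was silent on 895. Symbols of 20701 were updated through Entrez identifiers (RefSeq table of WBcel235), and 65 kept the older one. No coordinates or sequences are given.

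Values were used as deposited, with no filter, and 11 of the 15 probe sets had means at or above the median of all. Limma 3.58.1 in R 4.3.3 (lmFit, eBayes, 2-sided) compared nhr-23 RNAi with control without a block, and replicate numbers with group as a term. P-values were adjusted by Benjamini-Hochberg over 22548 probe sets, with a threshold of 0.05. Each gene of a list was read by its brightest probe set.

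Replicate numbers come from the titles. Deviations from group means correlated between same-numbered arrays at 0.58, 0.167 and 0.573 for replicates 1, 2 and 3, so the numbers were taken to pair the arrays, on the values alone. This evidence is weak for number 2, since RNAi replicate 1 correlated with control replicate 2 at 0.233, and over the 15 probe sets number 2 gave 0.027. The titles call the arrays biological replicates, with no word on separate cultures, so p-values measure the spread between these samples. The number of arrays limits the precision.

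On simulated data with 22548 probe sets, the fit of nhr-23 RNAi against control recovered 83% of 100 probe sets changed by 1 log2 and 95% of 100 changed by 2 log2. With the block these were 58% and 94%, and for replicate number 6% and 69%. The simulated noise was independent between arrays, whereas deposited arrays of the same number shared part of their deviations. The share recovered after Benjamini-Hochberg adjustment also depends on how many probe sets were changed, which the simulation set. On the deposited arrays no probe set passed the fit without the block. The largest difference there, 2.72 log2 for the dimmer nhr-23 probe set, had a limma adjusted p of 0.993. These shares therefore need not hold for the deposited arrays.

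Every probe set of each regulator was named whatever its values, with the 3 smallest p of each pathway list and the 5 probe sets most like each of nhr-23. F58H1.2, lin-29, nhr-91 and strm-1 were named after their values were seen. The regulators and lists were chosen with earlier results of these data known. Alternatives were the replicate block, single arrays or numbers left out, quantile and median scaling, a filter on dim probe sets, an intensity-dependent prior and leaving out cross-matching probe sets.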

Additional observations from a re-analysis of the deposited data

How the results depend on the processing

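No probe set passed for nhr-23 RNAi against control under any alternative except the replicate block, where 2 did. The block moved 1 of the 15 regulator probe sets past the threshold, the dimmer nhr-23 one at 2.72 log2, and changed no other call. With the block and both arrays of number 1, 2 or 3 left out, chosen after seeing the data, 1, 96 and 37 probe sets passed. Of 217 alternative values of the 15, 199 kept direction and call and 17 changed direction, in 7 probe sets, all below the threshold. The replicate block, the intensity-dependent prior and the filters on probe sets leave a log2 difference unchanged by construction. For these only the call could change, so the 199 include values whose direction was fixed. Without single arrays the log2 difference ran from -0.32 to 0.14 (nhr-41, dimmer), -0.28 to 0.021 (nhr-85), -0.12 to 0.15 (blmp-1, brighter), -0.033 to 0.38 (blmp-1, dimmer), -0.50 to 0.060 (bed-3), -0.67 to 0.26 (lin-42, brighter) and -0.20 to 0.14 (myrf-1). With both arrays of number 1 left out it was 0.099 for nhr-41 (dimmer) and 0.011 for nhr-85, of number 2 -0.17 for blmp-1 (brighter) and 0.017 for myrf-1, and of number 3 0.066 for bed-3 and 0.0073 for lin-42 (brighter). The mean of both nhr-23 probe sets gave 1.12 log2, against -0.49 for the brighter. Within-array shifts ran from -0.11 to 0.22 for nhr-41 and -0.048 to 0.33 for blmp-1 without single arrays. Pairing by number leaves the within-array shift of nhr-23 at 3.21 log2 by construction. Its exact permutation p (2-sided) was 0.25 with pairing, the smallest that 3 pairs allow, against 0.1 without. The count of 833 at an unadjusted p under 0.05 was 487 without control replicate 2, 335 and 513 without numbers 1 and 2, 1501 without number 3 and 339 without dim probe sets. For replicate number 506 probe sets passed, against 186 without the group term and 205, 1250 and 40 without numbers 1, 2 and 3. With an intensity-dependent prior 1 of the 15 passed, myrf-1 (limma adjusted p = 0.0492), with 678 of all 22548 (3.01%). The causes of these changes were not tested. Signal over background is unknown.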
